A study of Mus musculus with 6 samples.

Results

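Family 2 is the largest of the cytochrome P450 families in mouse, and 42 of its genes were followed in the livers of wild type (WT) mice and of β-cateninΔ(ex3)/+ mice, all labelled C57BL/6 and 8 weeks old. The members are the rows of the deposited table, 42 of 31950 genes, whose symbol is *Cyp2*, a single subfamily letter and a number. 9 rows named as pseudogenes and 1 with a 2-letter subfamily (*Cyp2ab1*) were left out. The members fall in 12 subfamilies. RNA was sequenced from 3 WT and 3 β-cateninΔ(ex3)/+ livers, and the comparison asks how the transcriptome of a liver with stabilised β-catenin differs from that of WT. In the mutant mice 1 of the *Ctnnb1* alleles lacks exon 3 after Cre recombination, so that its β-catenin escapes the phosphorylation that marks the protein for degradation. The paper describes several routes for Cre, namely the albumin promoter in hepatocytes, a tamoxifen-inducible form of it, and an adenovirus that leaves a mosaic of recombined and unrecombined cells. It uses the name β-cateninΔ(ex3)/+ for livers of the tamoxifen-induced ERT2-Alb-Cre mice and states that mice with constitutive albumin-Cre died within weeks of birth, but its RNA-seq methods do not name the route. The sex of the mice, and whether the WT mice carried Cre or received tamoxifen, are not given in the sources used here.

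Cytochrome P450 enzymes are heme proteins of the endoplasmic reticulum that insert an oxygen atom into lipophilic substrates, with electrons passed on from NADPH by P450 oxidoreductase. Family 2 handles drugs, solvents, steroids, bile acids and arachidonic acid, and in mouse it has grown by local duplication into clusters of similar genes. Some of these genes are known to be active mainly around the central vein, where Wnt and β-catenin signalling is strongest, and several differ between male and female livers or between young and adult ones.

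Expression is given as FPKM, the number of sequenced fragments of a gene scaled to the length of its transcript and to the depth of the library, a level per length that can be compared between genes. Log2 fold changes are mutant over WT on the log2(FPKM + 1) scale, which understates changes of low genes. Genes with a mean of at least 0.5 FPKM over the 6 livers were tested, and a gene was called higher or lower when its adjusted p was below 0.05 and its fold change at least 2. The steps in the low values correspond to about 24500000 to 24700000 fragments in the WT libraries and 16900000 to 19500000 in the mutant ones. In the 1854 genes of at least 20 FPKM the median coefficient of variation among livers was 4.5% in WT and 3.31% in the mutants. With 3 livers a group an exact permutation test of a single value cannot go below p = 0.1. The median of all tested genes lay at 0.14 on the log2 scale, above 0, and the changes below are to be read relative to it.

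Gene groups other than genotype also separated the livers. *Xist*, an RNA made by cells with a silenced X chromosome, was at 20.3, 22.2 and 21.1 FPKM in the WT livers and at 0.0146, 0 and 0.0128 FPKM in the mutant livers, while the Y-linked *Eif2s3y* had means of 0.00563 and 9.51 FPKM. No library of a group overlapped with the other group for either gene. Sex and genotype therefore cannot be told apart in any of the comparisons below. Of 18 genes known to be higher in adult male liver, none of them *Cyp2*, 15 were tested and called higher in the mutants, but 8 of these passed the filter on low values only through the mutants, so that their direction was fixed by the filter. Of 16 genes other than *Cyp2* known to be higher in females, 8 were lower, 3 higher and 4 not called, and in the same way 5 were tested only through WT and 3 only through the mutants. Of 16 measured genes that are active in perinatal liver, 12 were tested, 7 of them only through WT, and 11 were lower in the mutants. The summed level of the 16 was 3906 to 4003 FPKM in WT and 30.3 to 47.8 FPKM in the mutant livers. Among them *Afp*, the fetal counterpart of albumin, had a mean of 608 FPKM in WT and 2.55 FPKM in the mutants, and *Igf2* had 829 FPKM in WT and was listed at 0 in every mutant liver. Such levels go against the labelled age of the WT mice, and since all 3 WT libraries carry them, no comparison without them is possible. Their part in the results below was not tested. *Ctnnb1* itself was at 25.9, 28.0 and 27.3 FPKM in WT and 25.4, 25.2 and 25.0 FPKM in the mutant livers (log2 fold change −0.10, adjusted p = 0.0935), and a level per gene does not show whether exon 3 is present.

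The labelled tissue was visible in all libraries. The 9 hepatocyte markers summed to 80757 to 84371 FPKM in WT and 42019 to 42415 FPKM in the mutants, with 2 called higher and 2 lower. The largest part of the sum was *Alb*, with means of 41434 FPKM in WT and 24841 FPKM in the mutants (not called). The 2 higher markers were *Apoc3* (204 and 925 FPKM) and *Hnf4a* (57.6 and 125 FPKM), and the 2 lower were *Apoa1* (17466 and 4331.5 FPKM) and *Ttr* (11863 and 4443 FPKM). The 8 Kupffer and myeloid markers went from 270 to 277 FPKM in WT to 541 to 555 FPKM in the mutants, with 3 higher and 1 lower. Lower sums in the mutants were found for erythroid cells (3308 to 3651 against 1810 to 1873 FPKM, 5 of 8 tested markers lower), stellate cells and fibroblasts (91.4 to 94.4 against 29.7 to 32.9 FPKM, 4 of 8 lower), liver endothelial cells (97.0 to 98.5 against 64.3 to 66.8 FPKM, 2 of 8 lower), lymphoid cells (31.1 to 35.5 against 14.9 to 15.4 FPKM, 2 of 6 tested lower) and cholangiocytes (48.9 to 52.0 against 24.9 to 25.6 FPKM, 1 of 5 tested lower). Of the lowered markers, 2 erythroid genes were tested only through WT. The lymphoid markers did not move together. *Cd79a*, *Cd79b*, *Gzma* and *Ms4a1* lay below WT without overlap, and *Cd3e*, *Cd8a* and *Nkg7* above it. *Cd79a* had means of 10.4 FPKM in WT and 1.48 FPKM in the mutants, and *Nkg7* 2.83 and 4.62 FPKM. Most of the cholangiocyte sum was *Spp1* (36.7 and 15.3 FPKM), while *Sox9* was higher in the mutants (0.528 and 0.811 FPKM, not called). The 6 markers of cycling cells summed to 12.9 to 14.8 FPKM in WT and 30.7 to 31.6 FPKM in the mutants, with 2 higher and 0 lower by limma. Of the markers of intestine and pancreas 2 were tested, 1 higher and 1 lower. The lower, *Fabp2*, had means of 133 FPKM in WT and 20.8 FPKM in the mutants, and the higher, *Cela1*, 2.59 and 34.1 FPKM. In bulk liver, fewer cells of a type and less RNA per cell cannot be told apart, and the part of cell makeup in the *Cyp2* values was not tested.

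Most *Cyp2* genes expressed in liver differed between the groups, and they did so in both directions. Of the 42 members, 34 passed the filter of a mean of at least 0.5 FPKM and were tested. 16 were called higher in the mutants, against 8.17% of all 13243 genes tested, and 7 were called lower, against 4.52% of all genes. The other 11 were tested and not called. 4 of the tested members passed the filter only through the group where they were higher, 3 of them through the mutants (*Cyp2c38*, *Cyp2c39* and *Cyp2u1*) and 1 through WT (*Cyp2c55*). The median log2 fold change of the tested members was 0.77, beside 0.14 over all genes, and the median of its absolute value was 1.44, beside 0.35. The FPKM values of the groups did not overlap for 33 of the 34 tested members, 20 with the mutants above and 13 with the mutants below, where 66.0% of all tested genes had groups that did not overlap. The exception was *Cyp2g1*. In all, 26 members had a mean of at least 10 FPKM in a group, and 7 in WT and 10 in the mutants reached 100 FPKM, of which 4 did so in both.

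**Figure D1:**
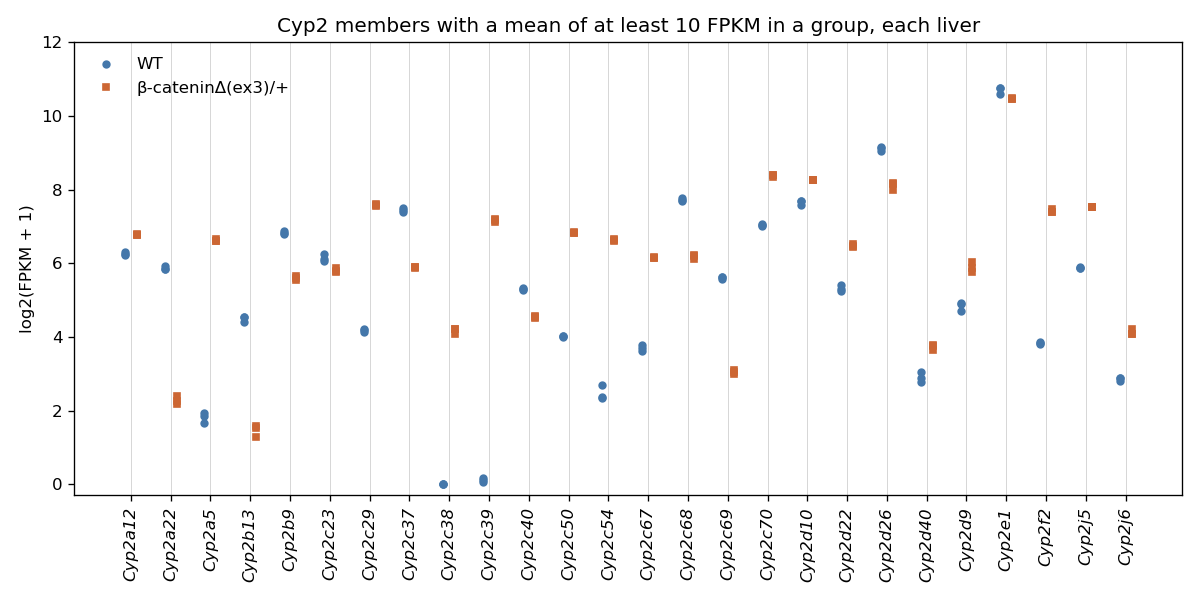
Level of each *Cyp2* gene with a mean of at least 10 FPKM in WT or β-cateninΔ(ex3)/+ livers, as log2(FPKM + 1) on the vertical axis, with 1 point per liver (circles, WT; squares, mutant). For all 26 genes drawn, the 3 WT points and the 3 mutant points do not overlap, and the spread within a group is small beside the distance between groups for most of them.

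*Cyp2e1*, the ethanol- and acetaminophen-metabolising enzyme and a classical gene of the pericentral zone, was the most abundant member in every liver. It was at 1730.1, 1536 and 1750.2 FPKM in WT and at 1421, 1434 and 1409.8 FPKM in the mutants. The lowest WT liver lay above the highest mutant one, yet the means of 1672 ± 118 and 1422 ± 12.2 FPKM (SD, n = 3) differed by only 0.850-fold, and with a log2 fold change of −0.23 (SE 0.053, adjusted p = 0.0112) the gene did not reach the fold threshold. Its share of the summed *Cyp2* level fell from 44.5 to 47.7% in the WT livers to 35.2 to 35.8% in the mutants. That of the *Cyp2c* genes was 19.3 to 21.6% in WT and 29.3 to 29.9% in the mutants, again without overlap.

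Summed over all members, *Cyp2* expression was 3585 ± 118 FPKM in WT and 4000.0 ± 26.0 FPKM in the mutants, a ratio of 1.12 (p = 0.1 in a two-sided exact permutation test), but the log2 ratio of 0.16 turned to −0.04 with median-ratio scaling and −0.06 with quantile normalisation, so no direction holds for the total. Without *Cyp2e1* the sums were 1913 ± 4.55 and 2578 ± 24.7 FPKM, a ratio of 1.35, with a log2 ratio of 0.43 that became 0.24 and 0.23 under these scalings. The small change of the total covered opposite changes of its subfamilies. The *Cyp2c* genes together went from 723 ± 22.1 to 1182 ± 5.38 FPKM (1.63-fold), the *Cyp2a* genes from 138 ± 3.48 to 220.0 ± 3.46 FPKM (1.60-fold) and the *Cyp2j* genes from 66.3 ± 0.704 to 202 ± 1.98 FPKM (3.05-fold). The *Cyp2b* sum was 138 ± 4.70 FPKM in WT and 50.6 ± 1.87 FPKM in the mutants, a ratio of 0.366. *Cyp2d* genes summed to 831 ± 28.0 and 743 ± 20.5 FPKM, a ratio of 0.894. Each of these sums separated the livers without overlap (exact permutation p = 0.1 in each).

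**Figure D2:**
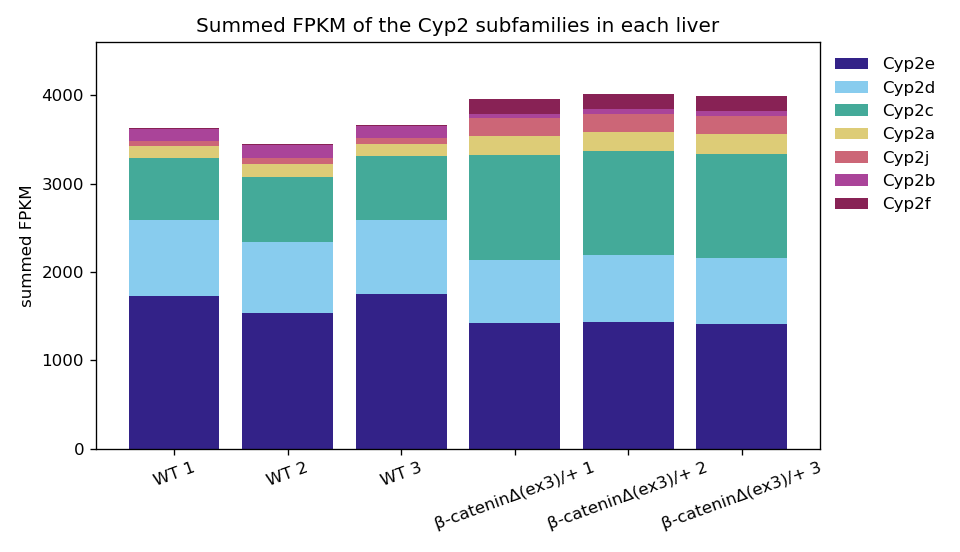
Summed FPKM (vertical axis, from 0) of the 7 most abundant *Cyp2* subfamilies in each of the 6 livers, stacked by subfamily, 1 bar per liver. *Cyp2e*, which is *Cyp2e1* alone, takes less of the bar in the 3 mutant livers, and *Cyp2c*, *Cyp2a*, *Cyp2j* and *Cyp2f* take more.

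The order of the members by level was rearranged. In WT the 5 highest were *Cyp2e1*, *Cyp2d26*, *Cyp2c68*, *Cyp2d10* and *Cyp2c37*. In the mutants they were *Cyp2e1*, *Cyp2c70*, *Cyp2d10*, *Cyp2d26* and *Cyp2c29*. *Cyp2c68* moved from rank 3 to rank 14 and *Cyp2c37* from 5 to 17, while *Cyp2c29* rose from 17 to 5, *Cyp2f2* from 19 to 7 and *Cyp2c39* from 34 to 8.

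The *Cyp2c* subfamily, whose enzymes include many of the epoxygenases of arachidonic acid, is the largest, with 14 members on chromosome 19, of which *Cyp2c23* lies apart from the others. Of the 13 tested, 7 were higher, 3 lower and 3 not called. The neighbours *Cyp2c29*, *Cyp2c38* and *Cyp2c39* were all raised. *Cyp2c39* (chr19:39510862-39568529 in the deposited table), reported to act on retinoic acid, was at 0.134, 0.0928 and 0.0450 FPKM in WT and at 139, 147 and 144 FPKM in the mutants. It was nearly undetected in WT and among the 10 most abundant members in the mutants (log2 fold change 7.05, SE 0.051, adjusted p = 8.94e-09). *Cyp2c38* (chr19:39389556-39463075) was listed at 0 in all 3 WT livers and at 17.7, 17.8 and 16.1 FPKM in the mutants (adjusted p = 9.24e-08), so no fold is given. *Cyp2c38* and *Cyp2c39* passed the filter only through the mutants, so that the direction of their tests was fixed by it. *Cyp2c29* (chr19:39269405-39330699) was at 17.7, 16.5 and 17.2 FPKM in WT and 194, 189 and 190.3 FPKM in the mutants. It was raised 11.1-fold, from 17.1 ± 0.596 to 191 ± 2.59 FPKM (log2 fold change 3.40, SE 0.038, adjusted p = 4.34e-08).

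Further along the cluster, *Cyp2c54* and *Cyp2c50*, both epoxygenases, were raised as well. *Cyp2c54* was at 4.08, 5.51 and 4.23 FPKM in WT and 99.4, 97.2 and 101 FPKM in the mutants, a 21.5-fold rise (log2 fold change 4.17, adjusted p = 7.36e-07). *Cyp2c50* was at 15.3, 15.1 and 15.2 FPKM in WT and 111, 114 and 112 FPKM in the mutants, a 7.39-fold rise (log2 fold change 2.81, adjusted p = 4.43e-08). The most abundant *Cyp2c* gene of the mutants was *Cyp2c70*, the enzyme that makes the muricholic acids of mouse bile. Its level was 127, 134 and 132 FPKM in WT and 338, 334 and 327 FPKM in the mutants, 2.54-fold higher (log2 fold change 1.34, SE 0.032, adjusted p = 7.74e-07). None of the WT livers overlapped with a mutant liver for these genes.

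The lowered genes lie between the raised ones. *Cyp2c37* was at 169, 180.5 and 173 FPKM in WT and 59.2, 58.4 and 57.7 FPKM in the mutants, 2.98-fold lower (log2 fold change −1.56, SE 0.036, adjusted p = 6.67e-07). *Cyp2c68* was at 206, 219 and 210.3 FPKM in WT and 72.7, 69.2 and 73.9 FPKM in the mutants, 2.94-fold lower (log2 fold change −1.54, SE 0.040, adjusted p = 1.11e-06). Both genes were among the 5 highest members of WT liver and neither kept that place. *Cyp2c40* was at 37.8, 38.8 and 39.4 FPKM in WT and 23.0, 21.9 and 22.5 FPKM in the mutants, which did not reach the fold threshold (log2 fold change −0.76, adjusted p = 1.73e-05) but did under quantile normalisation (−1.03). *Cyp2c23*, a further epoxygenase, was at 66.1, 75.6 and 69.1 FPKM in WT and 57.4, 53.7 and 54.8 FPKM in the mutants (−0.34, adjusted p = 0.00355) and was not called.

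A pair with similar sequence before the start changed in opposite directions. *Cyp2c67* (chr19:39608842-39649051) was at 12.1, 11.3 and 12.8 FPKM in WT and 70.4, 69.8 and 71.4 FPKM in the mutants, a 5.85-fold rise (log2 fold change 2.46, SE 0.050, adjusted p = 3.88e-07). *Cyp2c69* (chr19:39842814-39886799) was at 46.4, 48.7 and 48.2 FPKM in WT and 6.95, 7.61 and 7.24 FPKM in the mutants, 6.58-fold lower (log2 fold change −2.56, SE 0.047, adjusted p = 2.48e-07). The groups of neither gene overlapped. In the annotated transcripts, 13.0% of the 150-base windows of *Cyp2c67*, 20.2% of those of *Cyp2c69* and 20.3% of those of *Cyp2c40* occur in another gene as well, for *Cyp2c67* and *Cyp2c69* mostly in *Cyp2c40*, so that reads could have been divided among these genes. They are the 3 members for which that share exceeds 10%, and their single levels are the least certain of the family. The share was 8.83% for *Cyp2c68*, and 17 of the 42 members share any such window.

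The 150 bases before the annotated starts of this pair (RefSeq, GRCm38.p6) are shown because they are alike while the genes' changes were opposite. Capitals mark CAAAGTCC, letters read by HNF4α, and the TATA box letters TATAAA. The window of *Cyp2c67* is chr19:39649043-39649192 and that of *Cyp2c69* chr19:39886770-39886919, both on the minus strand and written 5′ to 3′.
Cyp2c67: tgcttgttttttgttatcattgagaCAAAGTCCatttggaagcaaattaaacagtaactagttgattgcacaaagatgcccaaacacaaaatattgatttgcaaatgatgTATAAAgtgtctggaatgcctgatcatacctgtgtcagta
Cyp2c69: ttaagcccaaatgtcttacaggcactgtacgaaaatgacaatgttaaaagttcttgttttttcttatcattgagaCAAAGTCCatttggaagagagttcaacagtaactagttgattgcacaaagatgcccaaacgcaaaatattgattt
Shifted against each other so that they align, 93 of 100 positions (93.0%) hold the same base, with a longest shared run of 36 bases. In *Cyp2c67* the TATA letters follow the aligned stretch and begin at position −40 from the annotated start. *Cyp2c69* holds the same letters too. They begin at position 11, after its annotated start, and so lie outside the window printed here. The pair is not the only one alike. *Cyp2c40* holds the same bases as *Cyp2c69* from CAAAGTCC to TATAAA, and *Cyp2c68* holds a similar stretch after CAAAGTCC. Both lay below WT, as *Cyp2c69* did, *Cyp2c68* with a log2 fold change of −1.54 and *Cyp2c40* with −0.76 and no call. Whether these sequences bear on the changes was not tested.

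**Figure D3:**
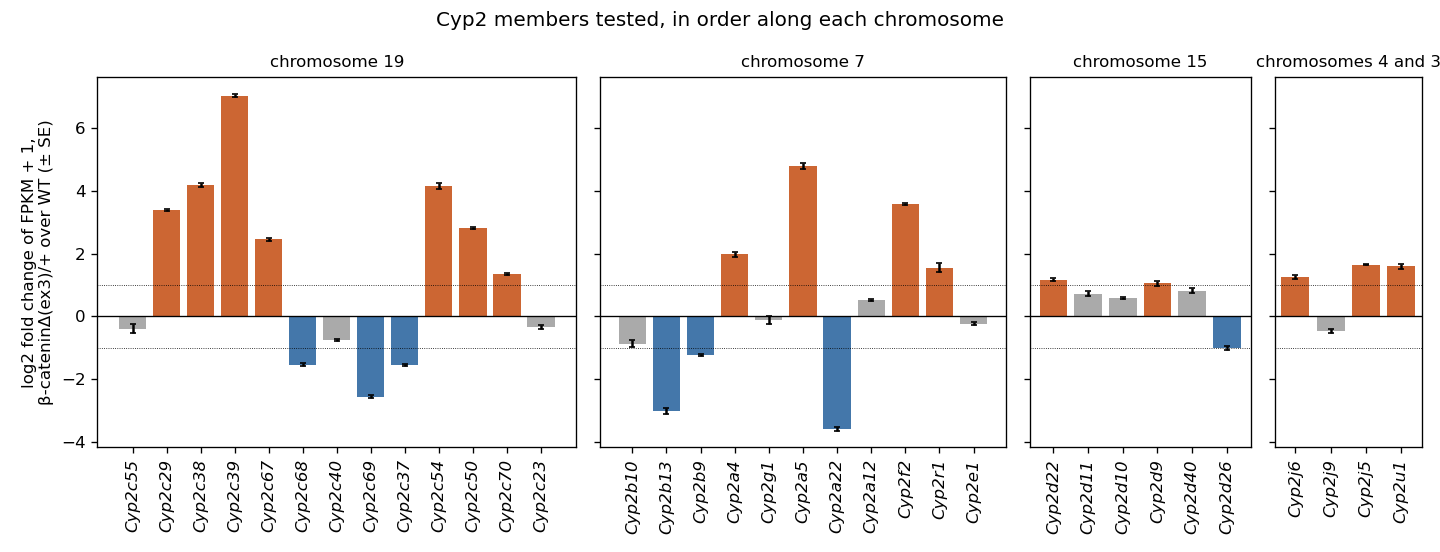
Log2 fold change of FPKM + 1 (mutant over WT, ± SE from limma) of the 34 tested members in their order along chromosomes 19, 7 and 15 and chromosomes 4 and 3, with orange bars for genes called higher, blue bars for genes called lower and grey bars for genes not called; dotted lines mark a 2-fold change. Higher and lower genes lie side by side among the *Cyp2c* genes and among the *Cyp2a*, *Cyp2b* and *Cyp2f* genes, and the bar of *Cyp2c38*, listed at 0 in WT, depends on the added constant of 1.

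Chromosome 7 holds 14 members, of which 11 were tested, 4 higher, 3 lower and 4 not called. The *Cyp2a* genes went furthest apart. *Cyp2a5* (chr7:26835305-26843548), the coumarin hydroxylase, was at 2.87, 2.16 and 2.64 FPKM in WT and at 96.2, 95.8 and 101 FPKM in the mutants. This was a 38.3-fold rise, from 2.55 ± 0.362 to 97.7 ± 2.92 FPKM (log2 fold change 4.80, SE 0.082, adjusted p = 1.89e-07). Its neighbour *Cyp2a22* (chr7:26931631-26939384) was at 56.3, 59.8 and 56.7 FPKM in WT and 3.57, 3.81 and 4.27 FPKM in the mutants. It was 14.8-fold lower, from 57.6 ± 1.88 to 3.88 ± 0.356 FPKM (log2 fold change −3.59, SE 0.064, adjusted p = 2.31e-07), the strongest fall of the family. *Cyp2a4* (chr7:26307169-26315088), a steroid hydroxylase close in sequence to *Cyp2a5*, was at 1.41, 1.64 and 1.70 FPKM in WT and 8.52, 9.77 and 9.20 FPKM in the mutants (log2 fold change 1.98, SE 0.074, adjusted p = 4.99e-06). The 2 genes share 4.22% and 4.56% of their windows with other genes. *Cyp2a12* rose by less than the threshold, from 74.4, 78.1 and 75.7 FPKM to 108, 111 and 109 FPKM (1.44-fold, log2 fold change 0.52, adjusted p = 4.83e-05).

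*Cyp2f2* (chr7:27119909-27133660), which activates naphthalene and is known from airway club cells and periportal hepatocytes, was at 13.2, 13.5 and 12.9 FPKM in WT and 168, 167.5 and 177 FPKM in the mutants. It rose 12.9-fold, from 13.2 ± 0.275 to 171 ± 5.35 FPKM (log2 fold change 3.60, SE 0.039, adjusted p = 4.09e-08). The 4 lung and airway markers together did not exceed 0.265 FPKM in any liver. *Cyp2g1*, the enzyme of the olfactory mucosa, was at 1.98, 1.47 and 1.27 FPKM in WT and 1.21, 1.33 and 1.53 FPKM in the mutants, and its groups overlapped (log2 fold change −0.12, adjusted p = 0.422).

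The *Cyp2b* genes were lowered or not called. *Cyp2b13* (chr7:26061497-26096197) was at 20.1, 22.4 and 22.3 FPKM in WT and 1.46, 1.89 and 2.00 FPKM in the mutants, 12.1-fold lower (log2 fold change −3.03, SE 0.091, adjusted p = 2.00e-06). *Cyp2b9* (chr7:26173411-26210661) was at 111, 117 and 113 FPKM in WT and 46.3, 47.4 and 49.5 FPKM in the mutants, 2.38-fold lower (log2 fold change −1.24, SE 0.040, adjusted p = 2.76e-06). Both are known to be higher in female than in male adult liver. *Cyp2b10*, the phenobarbital-inducible gene used as the readout of the receptor CAR, was low, at 2.29, 3.19 and 2.92 FPKM in WT and 1.10, 1.03 and 1.08 FPKM in the mutants. Its groups did not overlap, but its log2 fold change of −0.87 (adjusted p = 0.000611) stayed inside the threshold with 1 added to FPKM and passed it with 0.1 added (−1.30).

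The upstream sequences of 3 genes of chromosome 7 are shown for the gene with the highest level (*Cyp2e1*, chr7:140763669-140763818, plus strand), the strongest rise on the chromosome (*Cyp2a5*, chr7:26835189-26835338, plus strand) and the strongest fall (*Cyp2a22*, chr7:26939387-26939536, minus strand), each with 150 bases before the RefSeq start in GRCm38.p6. Capitals mark CTTTGA, the core letters read by the TCF and LEF partners of β-catenin, and CAAAGTCC and TATAAA as above.
Cyp2e1: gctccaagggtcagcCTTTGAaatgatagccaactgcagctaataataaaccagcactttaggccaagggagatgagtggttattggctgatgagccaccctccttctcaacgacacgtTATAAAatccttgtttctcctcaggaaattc
Cyp2a5: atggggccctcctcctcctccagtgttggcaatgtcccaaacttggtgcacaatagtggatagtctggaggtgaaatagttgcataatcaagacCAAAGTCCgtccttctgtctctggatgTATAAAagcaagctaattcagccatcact
Cyp2a22: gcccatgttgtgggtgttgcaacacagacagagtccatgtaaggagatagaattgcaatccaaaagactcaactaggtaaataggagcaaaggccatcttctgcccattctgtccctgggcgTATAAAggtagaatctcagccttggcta
All 3 hold the TATA letters, the CTTTGA letters occur in *Cyp2e1* and the CAAAGTCC letters in *Cyp2a5*.

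These letters were counted on both strands in RefSeq windows from 250 bases before to 50 after each start, which were found for 35 of the 42 members. For 9 of the 35 the RefSeq start was exactly the start of the gene in the deposited table. The window of *Cyp2c29* (chr19:39286835-39287134) lies inside that gene's interval. One window of *Cyp2c39* (chr19:39347096-39347395) lies outside the interval of *Cyp2c39*. CTTTGA occurred in 5 members (*Cyp2c29*, *Cyp2c39*, *Cyp2c70*, *Cyp2e1* and *Cyp2j5*), 14.3%, beside 16.0% of all 32851 windows. 4 of the 5 are genes called higher, out of 13 such genes with a window, and none is among the 7 called lower. Of the 13, *Cyp2c39*, which holds the letters, and *Cyp2c38*, which does not, were tested only through the mutants. The split by call was not tested. CAAAGTCC occurred in 8 members, 22.9%, beside 1.42% of all windows, in 4 of the 13 higher and 2 of the 7 lower genes. The 2 motifs share letters and can overlap, as they do in *Cyp2c70*. TATAAA occurred in 20 members, 57.1%, beside 13.6% of all windows. The STAT5 letters TTCNNNGAA (8.30% of all windows) and the HNF1 motif (0.399%) occurred in 0 of the members' windows. Members of a cluster share sequence by descent and are not independent, and a match in letters does not show that a factor binds.

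Of the 8 *Cyp2d* genes of chromosome 15, 6 were tested, with log2 fold changes of no more than 1.17 in either direction. Of these 6, 2 were higher, 1 lower and 3 not called. *Cyp2d26* (chr15:82790101-82794294), the most abundant of them in WT, was at 572.5, 529 and 559 FPKM in WT and 254, 287 and 285 FPKM in the mutants, 2.01-fold lower (log2 fold change −1.01, SE 0.058, adjusted p = 3.01e-05). It sat at the fold threshold, and without WT replicate 1, WT replicate 3 or mutant replicate 1 it was no longer called (−0.98, −0.999 and −0.95). *Cyp2d22* (chr15:82370527-82380260), regarded as the counterpart of human CYP2D6, was at 37.3, 41.7 and 38.3 FPKM in WT and 88.2, 86.9 and 91.6 FPKM in the mutants (2.27-fold, log2 fold change 1.17, SE 0.052, adjusted p = 1.04e-05), and lost its call with the other scalings (0.98 and 0.90). *Cyp2d9*, the male-predominant testosterone hydroxylase, was at 28.6, 29.6 and 25.0 FPKM in WT and 53.5, 64.2 and 57.8 FPKM in the mutants (2.11-fold, log2 fold change 1.05, SE 0.090, adjusted p = 0.000175). Its call was lost under both scalings (0.86 and 0.77), without WT replicate 3 (0.98) and without mutant replicate 2 (0.98). *Cyp2d10* was at 208, 193 and 207 FPKM in WT and 307, 304 and 304 FPKM in the mutants (log2 fold change 0.59, adjusted p = 4.82e-05), and *Cyp2d40* at 7.28, 5.82 and 6.39 FPKM in WT and 12.8, 11.5 and 12.4 FPKM in the mutants (0.82, adjusted p = 0.000378). Neither was called, although the groups did not overlap.

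*Cyp2j* genes, on chromosome 4, also encode epoxygenases. *Cyp2j5* was at 57.5, 58.5 and 57.7 FPKM in WT and 184, 185 and 184 FPKM in the mutants, a 3.18-fold rise with hardly any spread among livers (log2 fold change 1.65, SE 0.027, adjusted p = 1.71e-07). *Cyp2j5* is also a gene of the kidney, and the 6 kidney markers together did not exceed 0.0598 FPKM in any liver. *Cyp2j6* was at 6.45, 6.40 and 6.06 FPKM in WT and 15.9, 17.6 and 15.8 FPKM in the mutants (2.61-fold, log2 fold change 1.26, adjusted p = 1.27e-05), and lost its call under quantile normalisation (0.98).

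A pair of single-gene subfamilies was raised at a low level. *Cyp2r1*, a vitamin D hydroxylase, was at 1.05, 0.842 and 1.38 FPKM in WT and 4.10, 5.38 and 5.97 FPKM in the mutants (4.71-fold, log2 fold change 1.55, SE 0.15, adjusted p = 0.00028). *Cyp2u1*, a fatty acid hydroxylase and the only member on chromosome 3, was at 0.361, 0.311 and 0.434 FPKM in WT and 2.91, 3.07 and 3.45 FPKM in the mutants (8.53-fold, log2 fold change 1.60, SE 0.074, adjusted p = 1.25e-05). It passed the filter only through the mutants, which fixed its direction. Of the tested members not yet described, *Cyp2d11* was at 1.11 to 1.16 FPKM in WT and 2.23 to 2.82 FPKM in the mutants (log2 fold change 0.72, 1.09 with 0.1 added to FPKM, where it was called). *Cyp2j9* was at 2.05 to 2.21 FPKM in WT and 1.11 to 1.43 FPKM in the mutants (−0.47), and *Cyp2c55* at 0.827 to 0.915 FPKM in WT and 0.148 to 0.613 FPKM in the mutants (−0.39, adjusted p = 0.0527). *Cyp2c55* was tested only through WT. The 8 members that were not tested stayed at or below 0.359 FPKM in every liver. *Cyp2d34*, *Cyp2j13* and *Cyp2b19* were listed at 0 throughout, and *Cyp2d12*, *Cyp2c65*, *Cyp2j8*, *Cyp2s1* and *Cyp2t4* had traces in 1 or more livers.

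The members known for a female bias were called in both directions, as were the female-biased genes outside the family. Of 8 *Cyp2* members listed as female-biased, 4 were lower in the mutants (*Cyp2b13*, *Cyp2c69*, *Cyp2c68* and *Cyp2b9*), 2 were higher (*Cyp2a4* and *Cyp2c39*) and 2 were not called (*Cyp2b10* and *Cyp2c40*). Both members listed as male-biased, *Cyp2d9* and *Cyp2u1*, were higher, *Cyp2d9* with the limits given above and *Cyp2u1*, like *Cyp2c39*, tested only through the mutants. Outside the family, the female-biased sulfotransferase gene *Sult2a1* had means of 273 FPKM in WT and 0.147 FPKM in the mutants. On the same list *Sult3a1* and *Sult3a2*, both sulfotransferase genes, were listed at 0 in every WT liver and had means of 142 and 11.6 FPKM in the mutants, and the steroid hydroxylase gene *Cyp17a1* had 0.0725 and 18.3 FPKM. The male-biased *Cyp7b1*, an oxysterol hydroxylase gene, had 0.597 and 163 FPKM. Because sex-linked genes separated the groups completely, these values cannot be assigned to genotype.

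The zones of the liver lobule were covered by 2 lists without *Cyp2* genes. Of 19 pericentral genes, 11 were higher and 0 lower by limma, with a median log2 fold change of 1.65, and 1 of the 19 was tested only through the mutants. Glutamine synthetase *Glul* went from 103 ± 1.25 to 626 ± 7.13 FPKM (2.59), ornithine aminotransferase *Oat* from 15.7 ± 0.752 to 608 ± 7.03 FPKM (5.19), and the Wnt feedback gene *Axin2* from 1.11 ± 0.416 to 6.57 ± 0.601 FPKM (1.86). The other 8 genes of the list were not called. Among them were the Wnt pathway genes *Rnf43* (0.81), *Lgr5* (0.32), *Nkd1* (0.31) and *Znrf3* (−0.08), and *Lect2* (−0.12). *Cyp2e1*, of the same zone, had a log2 fold change of −0.23. Of 20 periportal genes, 7 were higher, 3 lower and 10 not called, with a median of 0.17, near that of all genes. *Pigr*, which carries immunoglobulins into bile, had 5.75, the amino acid enzymes *Tat* and *Ass1* 2.75 and 2.17, and gluconeogenic *Pck1* −1.45. *Cyp2f2*, of the periportal zone, had 3.60. With median-ratio scaling or quantile normalisation 5 periportal genes were lower instead of 3.

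**Figure D4:**
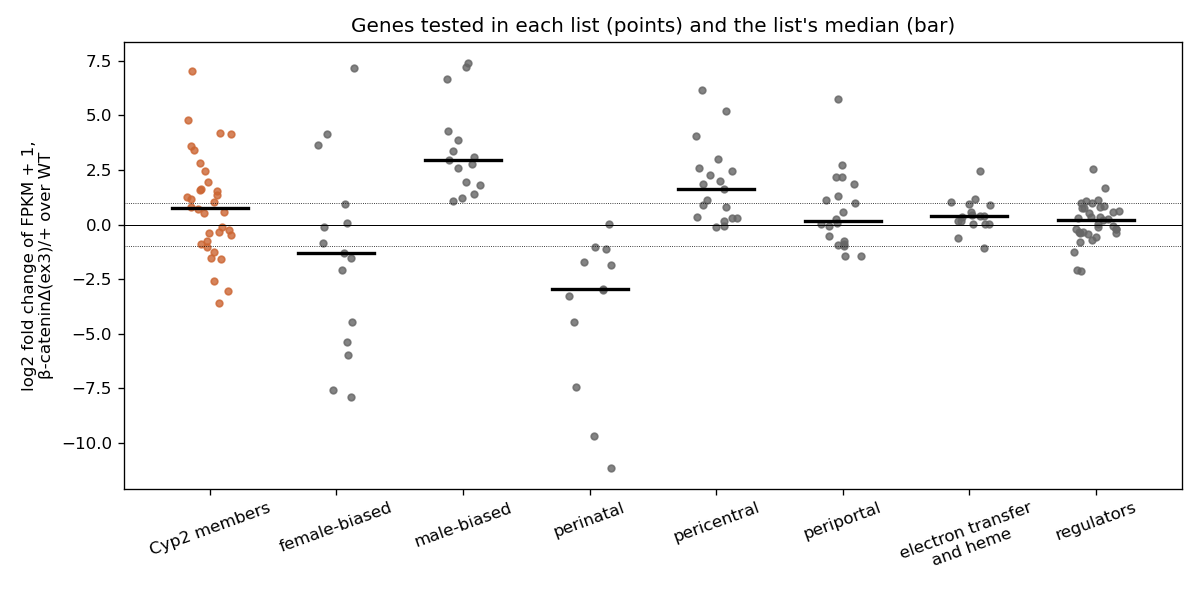
Log2 fold change of FPKM + 1 (mutant over WT, vertical axis) of each tested gene in the *Cyp2* family and in the other lists of genes described in the text, 1 point per gene, with the median of each list as a bar and dotted lines at a 2-fold change. The *Cyp2* points spread to both sides of 0, as do those of female-biased and periportal genes, while all male-biased points lie above 0 and the points of electron transfer, heme and regulator genes stay near 0 for the most part.

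The list for electron transfer and heme supply of P450 proteins held 17 genes. Of these, 3 were higher and 1 lower, where 8.17% and 4.52% of all genes were, and 13 were not called. Not all are suppliers, since *Hmox1* and *Hmox2* degrade heme and *Ephx1* is an epoxide hydrolase. The 1 gene called lower was *Hmox1*. The median was 0.40. *Por*, the oxidoreductase that all microsomal P450 enzymes depend on, was at 70.3, 64.3 and 76.8 FPKM in WT and 45.6, 47.0 and 44.3 FPKM in the mutants (log2 fold change −0.61, SE 0.069, adjusted p = 0.000575) and was not called, although its groups did not overlap. *Cyb5b*, a cytochrome b5, was at 17.6, 18.2 and 19.2 FPKM in WT and 105, 106 and 105 FPKM in the mutants (2.46, SE 0.041, adjusted p = 1.77e-07). *Cyb5a*, the other cytochrome b5 of the list, had 0.44 and was not called. The heme synthesis genes *Uros* (1.17) and *Alad* (1.05) were higher and the heme-degrading *Hmox1* was lower (−1.06). With quantile normalisation 1 gene of the list was higher instead of 3.

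Among 36 nuclear receptors and other factors known to control *Cyp2* genes, 35 were tested, with 4 higher, 3 lower and 28 not called and a median of 0.20. Of all genes tested, 8.17% were higher and 4.52% lower, with a median of 0.14. *Bcl6* was tested only through the mutants, and *Cux2* and *Dbp* only through WT. *Bcl6*, a repressor of female-biased genes that is itself male-biased, was at 0.242, 0.324 and 0.283 FPKM in WT and 6.73, 6.19 and 6.41 FPKM in the mutants (log2 fold change 2.54, SE 0.059, adjusted p = 6.66e-07). *Cux2*, its female-biased counterpart, was at 3.74, 3.84 and 3.65 FPKM in WT and 0.126, 0.106 and 0.0840 FPKM in the mutants (−2.10, SE 0.054, adjusted p = 1.05e-06). The direction of both was fixed by the filter, and sex and genotype cannot be told apart for them. *Hnf4a*, a general activator of hepatocyte genes, went from 57.6 ± 0.953 to 125 ± 1.07 FPKM (1.10), the oxysterol receptor gene *Nr1h3* from 17.6 ± 0.520 to 40.1 ± 3.39 FPKM (1.14) and *Cebpb* from 27.7 ± 9.85 to 86.2 ± 4.03 FPKM (1.67). The clock output factors *Dbp* (−2.11) and *Tef* (−1.27), which drive daily rhythms of P450 genes, were lower, and the hour of sampling is not given in the sources used here. *Nr1i3*, which encodes CAR, was at 51.4, 55.6 and 52.8 FPKM in WT and 31.6, 33.3 and 31.7 FPKM in the mutants (−0.71, adjusted p = 4.67e-05) and was not called. With either other scaling 2 regulators were higher instead of 4.

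Both directions were also found among the P450 genes of the other families. Of 47 measured, 31 were tested, with 9 higher, 9 lower and 13 not called and a median of −0.12 (3 tested only through the mutants and 1 only through WT), where the *Cyp2* genes had 16 higher and 7 lower of 34 and a median of 0.77. No test of the difference between the families was made.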

How the data were processed

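Liver RNA of 3 WT and 3 β-cateninΔ(ex3)/+ mice was measured, grouped by the sample labels. The authors deposited FPKM per gene and liver; the submitters' processing notes name cutadapt 1.9, HISAT2 2.0.4, StringTie 1.3.4d, DESeq2 and edgeR. The genome build is not given in the sources used here. Of 31950 gene identifiers 31856 are in GENCODE M21 (GRCm38), 27742 with the same position, as were 38 of the 42 members. 0 columns were left unused, and no pair of libraries was alike beyond 2 equal values above 0.

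Genes with a mean of at least 0.5 FPKM (13243) were fitted as log2(FPKM + 1) with limma 3.58.1 (R 4.3.3, eBayes with trend, no covariates, Benjamini-Hochberg adjustment over all genes), and the code was tested on simulated data. Count tests need counts and were not run. Depth was estimated from the steps in the low values of single-exon genes, where 19.9 to 28% of values lay within 0.02 of a step (4% by chance). The search stopped at 30000000 fragments, and multiples of the estimates would give the same steps, so they are approximate. The labels list separate samples of each group and say no more of how they were taken, so p-values measure the spread between these samples, which may in part be technical.

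The values of each liver are given for members with a mean of at least 10 FPKM in a group or a call. For each list of other genes the counts are given, with the 3 largest and 3 smallest changes as the source of examples, beside *Ctnnb1*, *Por* and *Nr1i3*. Other genes named, such as *Glul*, *Axin2*, *Hnf4a*, *Xist*, *Eif2s3y*, *Cyb5a* and single markers of cell types, were chosen after their values were seen. The members and lists were chosen with earlier results of these data known. Promoter windows are from RefSeq, and windows of 150 bases were compared between GENCODE M21 transcripts. Alternatives were the pseudocount, the filter, median-ratio and quantile scaling, eBayes without trend, a replicate block, each replicate left out and other fold thresholds.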

Additional observations from a re-analysis of the deposited data

How the results depend on the processing

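Of 441 refitted log2 fold changes of members, 428 kept their direction and call, 10 lost and 3 gained the call, and 0 reversed; all 13 are given beside their genes. The calls among members stayed within 13 to 17 higher and 7 to 8 lower with the other pseudocount, filter, scaling, trend and block settings, and within 15 to 16 and 6 to 7 with any 1 replicate left out. Without a fold threshold 20 were higher and 12 lower, and at 4-fold 8 and 3. Over all genes, 1680 were called, 1642 to 1703 with 1 replicate left out, 2705 with a pseudocount of 0.1, 7551 without a fold threshold and 466 at 4-fold. The share of higher calls was 64.4%, 53.1% with median-ratio scaling and 49.5% with quantile normalisation, where the median of all genes was 0.01 and −0.02 instead of 0.14. The log2 ratio of the summed family reversed to −0.036 and −0.064 under these scalings; the cause was not tested. Equal replicate numbers did not pair the livers (correlations of 0.0268, 0.0213 and −0.0054, different animals), and a replicate block gave 1673 calls with 16 members higher and 7 lower. Counts of fragments are not in the values, so the counting error of low members cannot be given.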

Other observations

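A few rows of *Cyp2* pseudogenes, which the family count leaves out, were expressed. *Cyp2d37-ps* was at 40.3, 41.3 and 40.7 FPKM in WT and 21.5, 20.2 and 23.3 FPKM in the mutants (log2 fold change −0.88, adjusted p = 5.11e-05 by limma) and was not called. *Cyp2d38-ps* was at 0.852, 0.835 and 1.23 FPKM in WT and 4.42, 4.54 and 3.91 FPKM in the mutants and was called higher (1.43, adjusted p = 7.04e-05). *Cyp2d36-ps* was at 1.67 to 2.33 FPKM in WT and 2.83 to 3.03 FPKM in the mutants (0.36, adjusted p = 0.0178). The groups of none of the 3 overlapped. The other 6 pseudogene rows and *Cyp2ab1* were too low to be tested.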
